A study of Mus musculus with 9 samples.

Results

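The genes described here encode receptors for fibroblast growth factors and for hepatocyte growth factor, 1 of these ligands, and regulators that act on the ERK pathway below them. They are 10 of the 47729 genes in the count tables, named by symbol: the FGF receptors Fgfr1, Fgfr2 and Fgfr4, the HGF receptor Met, its ligand Hgf, the Sprouty genes Spry1, Spry2 and Spry4, the ERK phosphatase gene Dusp6 and the ETS transcription factor gene Etv5. Polyadenylated RNA of cultured skeletal muscle myoblasts from FVB/N mice was sequenced in 3 populations, each with 3 libraries: the Parental cells (PAR), the FRCs Cycle 1 (FRC1) and the SRCs Cycle 3 (SRC3). FRCs and SRCs are called reserve cells in the series' title, and the labels do not spell out either abbreviation. Reserve cells are undifferentiated mononucleated cells that remain when a myoblast culture has been made to form myotubes. Per the labels, both reserve populations were expanded by passaging under proliferation conditions before harvest. The labels name no treatment with a ligand or an inhibitor. All RNA samples were scored as intact. Nothing in the labels says whether the 3 libraries of a group came from separate cultures, so the p-values rest on a spread between libraries that may be technical. In bulk RNA, fewer cells that express a gene and less RNA per cell cannot be told apart.

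FGFs and HGF are growth factors that activate receptor tyrosine kinases and, through RAS, the kinases RAF, MEK and ERK. In muscle, FGF2 and HGF are known to activate satellite cells, the stem cells of the fibre, and to keep myoblasts dividing, while Sprouty1 is known for its part in the return of satellite cells to quiescence. Sproutys and DUSP6 are both products and brakes of the pathway: ERK activity raises their transcription, Sproutys then damp the signal between receptor and RAF, and DUSP6 removes the phosphates from ERK. ETV5 is an ETS factor of the PEA3 subfamily, whose expression FGF signalling is known to sustain.

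Gene counts came to 13012996 to 14336279 per library, and 17071 to 17416 genes had a read. A floor of 3 counts corresponded to 0.209 to 0.231 CPM (counts scaled to the size of the library). The myoblast label was checked with 8 markers: their summed level was 2789 to 2873 CPM in PAR, 2682 to 2737 in FRC1 and 1856 to 2055 in SRC3, with Myf5 at 0 in PAR and FRC1. Markers of other cell types are given beside the results they move with. Symbols, locations and lengths come from GENCODE M21 on GRCm38. Levels are CPM after TMM scaling, given as mean ± SD over 3 libraries where a group is summarised, and log2 changes are given ± SE. A change was called where the Benjamini-Hochberg adjusted p of edgeR's two-sided quasi-likelihood test, over 12540 tested genes, was under 0.05. All 10 genes entered the test. Fgfr2 and Hgf did so through PAR and FRC1 alone, having fewer than 10 counts in every SRC3 library.

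Windows of 250 bases before an annotated start were available from RefSeq (GRCm38.p6) for 8 of the 10 genes, 10 windows in all. Shown here, 5′ to 3′ on the gene's strand, are those of the pair whose reads were lowest in SRC3, Fgfr2 (chr7:130266809-130267058, minus strand) and Hgf (chr5:16553245-16553494, plus strand), and of the pair with the clearest rise from FRC1 to SRC3 among the feedback genes, Spry1 (chr3:37639697-37639946, plus strand) and Dusp6 (chr10:99262981-99263230, plus strand). Capitals mark AGGAAG, a short form of the site that ETS factors bind, or its reverse complement.
Fgfr2: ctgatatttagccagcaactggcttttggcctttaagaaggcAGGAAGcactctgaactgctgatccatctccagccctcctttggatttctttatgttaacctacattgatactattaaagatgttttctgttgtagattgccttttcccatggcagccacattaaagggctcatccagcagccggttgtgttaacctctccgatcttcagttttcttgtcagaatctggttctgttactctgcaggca
Hgf: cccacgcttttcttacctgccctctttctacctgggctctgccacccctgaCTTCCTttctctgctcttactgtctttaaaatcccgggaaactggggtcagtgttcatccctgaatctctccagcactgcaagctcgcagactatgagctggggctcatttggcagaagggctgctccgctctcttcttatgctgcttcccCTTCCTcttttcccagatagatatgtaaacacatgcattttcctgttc
Spry1: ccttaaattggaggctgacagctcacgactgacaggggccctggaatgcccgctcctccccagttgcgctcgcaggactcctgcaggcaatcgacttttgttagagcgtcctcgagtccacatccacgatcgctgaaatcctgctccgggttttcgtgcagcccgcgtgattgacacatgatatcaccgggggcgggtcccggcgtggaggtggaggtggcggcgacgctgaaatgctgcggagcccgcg
Dusp6: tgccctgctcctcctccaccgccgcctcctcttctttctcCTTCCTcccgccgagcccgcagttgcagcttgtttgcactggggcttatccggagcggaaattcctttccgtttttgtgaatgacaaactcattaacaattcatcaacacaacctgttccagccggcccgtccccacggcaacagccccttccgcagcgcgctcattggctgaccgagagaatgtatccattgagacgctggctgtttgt
The letters AGGAAG, read on both strands, stood once in the Fgfr2 window (208 bases before the start) and once in that of Dusp6 (210 bases before). They stood at 199 and 48 bases before the start in the Hgf window shown and at 175 in its second window, and at 238 in the window of Fgfr4. The windows of Met, Spry1, Spry2 and Etv5 held none. Among 32851 windows of the same length 29.5% held AGGAAG. A longer ETS form, CCGGAAG, was in no window of these genes and in 6.91% of all windows. The forms share the letters GGAAG but cannot match at one place. TGANTCA, the form bound by AP-1, was found in the Met window (54 bases before the start; 6.75% of all windows), the E-box CAGCTG in 1 of 2 Etv5 windows (207 bases before; 13% of all windows), and TGACG in none (17.8% of all windows). In CG dinucleotides the lowest windows were those of Fgfr2 with 2 and Hgf with 4 and 5, against a median of 6 over all windows, while those of Fgfr4, Dusp6, Etv5, Spry1, Spry2 and Met held 15 to 27. A match is a description of the letters and not a measured binding site.

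The called changes of the 10 genes were all downward in FRC1 against PAR and went in both directions in SRC3. In FRC1 against PAR, 6 of the 10 genes were called, all lower (Fgfr1, Fgfr2, Fgfr4, Met, Dusp6 and Etv5), where 28.3% of all tested genes were called and 14.7% were called lower. Without PAR replicate 3 or without FRC1 replicate 2 the count was 3. Libraries of the 2 groups did not overlap for 5 of the 10, against 44.2% of all tested genes. The median log2 fold change of the 10 was -0.26, beside 0.0034 over all tested genes.

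In SRC3 against PAR, Met and Spry1 were higher and Fgfr1, Fgfr2, Fgfr4, Hgf and Etv5 lower, 7 of 10, where 37.9% of all genes were called (17.8% higher, 20.2% lower). Libraries did not overlap for 8 of the 10, against 49.1%. The median log2 fold change was -0.13, beside 0.0057 over all genes. In SRC3 against FRC1, Met, Spry1 and Dusp6 were higher and Fgfr2, Fgfr4, Hgf and Spry2 lower, again 7 of 10, where 33.5% of all genes were called (15.5% higher, 18% lower). Libraries did not overlap for 9 of the 10, against 42.8%, and the median log2 fold change was 0.00, beside -0.00028. Fgfr2 and Hgf entered the test only through the groups where they were high, so their calls against SRC3 lend these counts no support. Of the other 8 genes, 5 were called in each comparison of SRC3. The comparisons share groups, so their calls are not independent of each other.

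**Figure D1:**
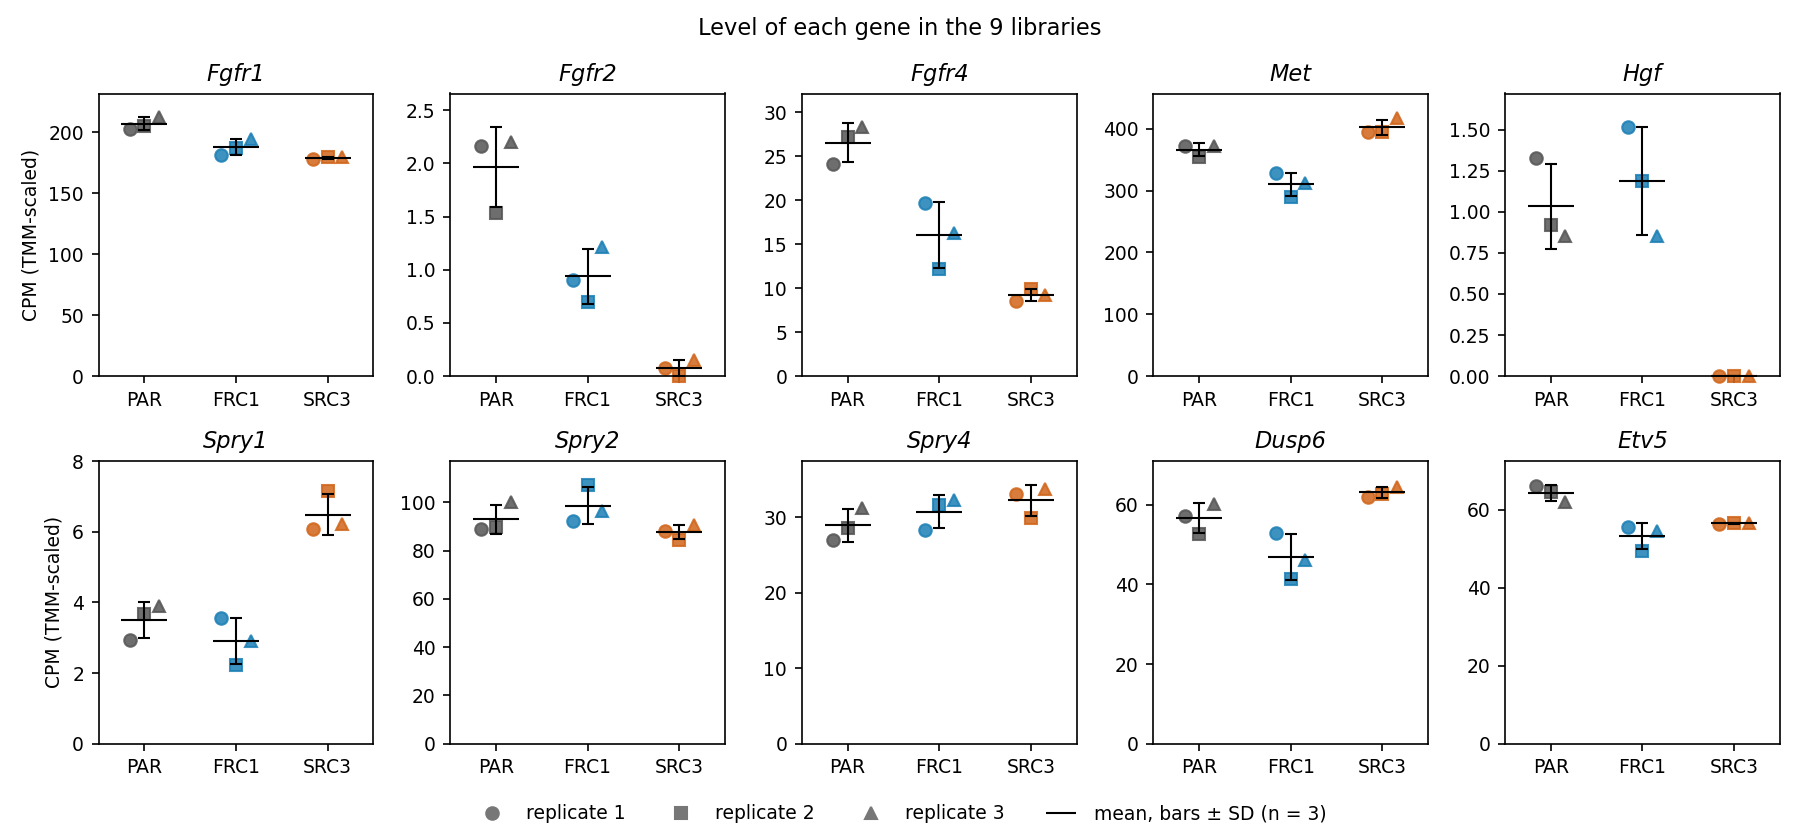
Level of each of the 10 genes (y axis, TMM-scaled CPM, linear from 0) in the 3 libraries of PAR, FRC1 and SRC3 (x axis); symbols are replicates, horizontal lines are means and bars are ± SD (n = 3). Fgfr4 steps down from PAR to FRC1 to SRC3, Hgf is at 0 in every SRC3 library, and Spry1 is higher in SRC3 than in either other group.

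Fgfr4 fell at both steps. It encodes an FGF receptor of myoblasts and regenerating muscle and lies on chromosome 13, 55152640 to 55168759. Its level was 24.1, 27.2 and 28.3 CPM in the PAR libraries, 19.7, 12.2 and 16.2 in FRC1 and 8.50, 9.86 and 9.19 in SRC3. All FRC1 libraries lay below all PAR libraries and above all SRC3 libraries. Against PAR, Fgfr4 was 1.66-fold lower in FRC1 (log2 change -0.73 ± 0.13, edgeR adjusted p = 0.00047) and 2.89-fold lower in SRC3 (-1.53 ± 0.14, edgeR adjusted p = 1.8e-07). From FRC1 to SRC3 it was 1.74-fold lower (-0.80 ± 0.15, edgeR adjusted p = 0.00046). These 3 calls held under every alternative run.

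Fgfr2 was the rarest receptor of the 10 genes and nearly absent from SRC3. The gene lies on chromosome 7, 130162451 to 133123350, a span drawn out by transcripts that share 314 exonic bases with Ctbp2. Ctbp2 lies on the same strand and had 16940 reads in all libraries against 124 for Fgfr2, so the Fgfr2 counts are uncertain. Fgfr2 had 31, 20 and 31 reads in the PAR libraries (1.53 to 2.20 CPM), 12, 10 and 17 in FRC1 (0.699 to 1.21 CPM) and 1, 0 and 2 in SRC3. No library of a group reached the values of the next. In FRC1 it was 2.09-fold lower than in PAR (log2 change -1.07 ± 0.31, edgeR adjusted p = 0.015). That call was lost without PAR replicate 1 (0.0667), PAR replicate 3 (0.0653) or FRC1 replicate 2 (0.0779), and with DESeq2 (0.0722). With 3 reads in SRC3 against 82 in PAR, the depth-corrected ratio of counts was 26.2 (95% interval 8.67 to 130), and against 39 in FRC1 it was 12.4 (3.96 to 63.0). These intervals cover counting error only. SRC3 replicate 3 held 2 of the 3 reads, and without it the ratios were 52.7 (9.19 to 2110) and 25.0 (4.23 to 1010).

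Fgfr1, the most abundant FGF receptor here (chromosome 8, 25513654 to 25575718), differed little. The PAR libraries stood at 203, 205 and 213 CPM, those of FRC1 at 181, 188 and 194 and those of SRC3 at 178, 180 and 180. PAR lay above both other groups in all libraries. The fall to SRC3 was 1.16-fold (log2 change -0.21 ± 0.046, edgeR adjusted p = 0.0013) and held under every alternative. In FRC1 the level was 1.10-fold lower than in PAR (-0.14 ± 0.046, edgeR adjusted p = 0.028), a call lost without any of PAR replicates 1, 2 and 3 or FRC1 replicates 1 and 2 (adjusted p 0.0503, 0.0569, 0.114, 0.0979 and 0.0586). The difference of SRC3 from FRC1 did not pass (-0.07 ± 0.047, edgeR adjusted p = 0.29), although their libraries did not overlap.

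The make-up of the receptor pool shifted from Fgfr4 towards Fgfr1. Counts were divided by the length of all annotated exons of each gene and expressed as shares of the sum over Fgfr1 to Fgfr4. Fgfr1 made up 72.8 ± 1.3% in PAR, 79.9 ± 4.1% in FRC1 and 86.6 ± 0.81% in SRC3. Fgfr4 made up 25.9 ± 1.2%, 18.9 ± 3.9% and 12.4 ± 0.74% in the same order. Fgfr2 came to 0.661 ± 0.13%, 0.380 ± 0.09% and 0.0348 ± 0.035%. Fgfr3, whose CPM passed in no comparison (1.38 ± 0.507, 1.28 ± 0.306 and 1.41 ± 0.216), stayed at or below 0.940 ± 0.13%. With the length of the longest transcript in place of all exons, Fgfr1 made up 82.5, 87.5 and 92.0%, so the size of a share depends on the length while the order of the groups was the same.

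**Figure D2:**
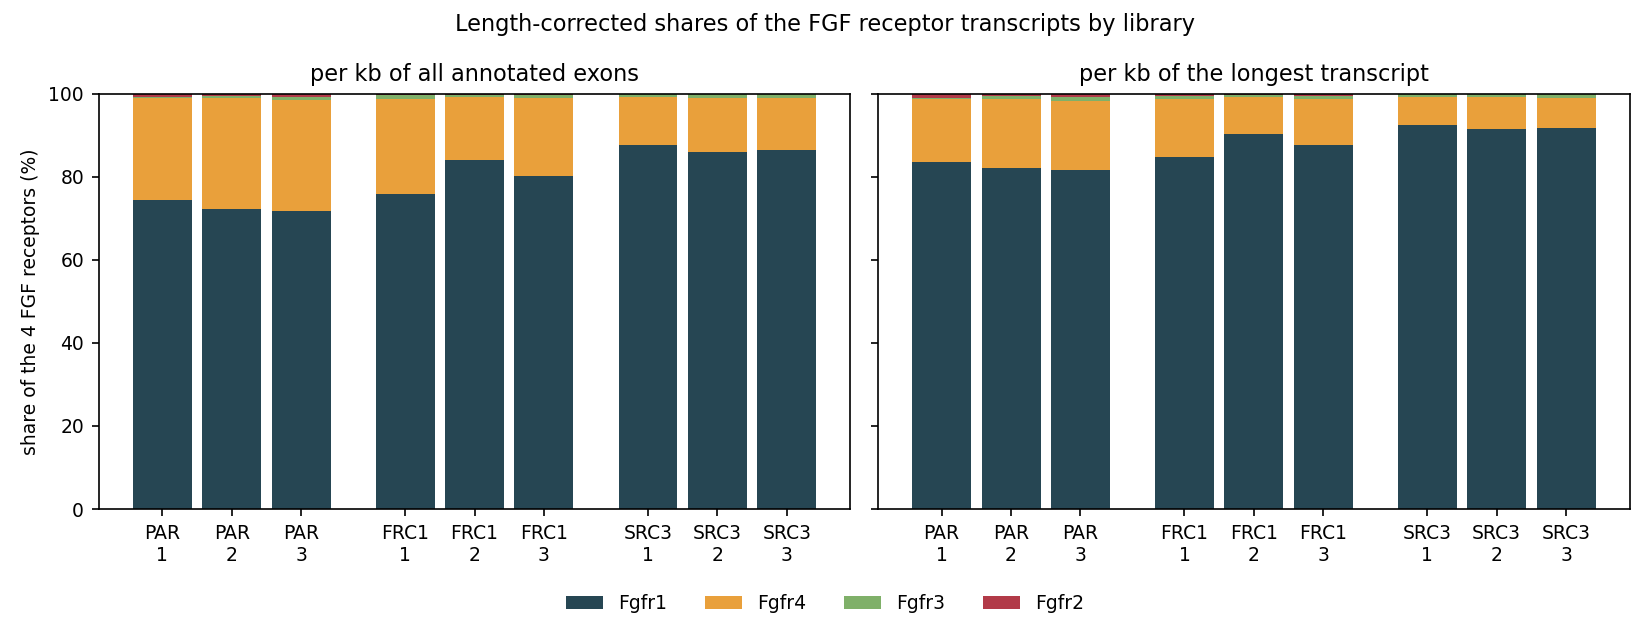
Share of each FGF receptor (y axis, % of the length-corrected sum over 4 receptors) in each library (x axis, group and replicate); the left panel divides by the length of all annotated exons and the right by the longest transcript. With either length the Fgfr4 band narrows from PAR (25.9% on the left) to FRC1 (18.9%) to SRC3 (12.4%), and FRC1 replicate 2 has the smallest Fgfr4 share of its group.

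Met, the receptor of HGF and a marker of satellite cells, was highest in SRC3 and lowest in FRC1. It lies on chromosome 6, 17463800 to 17573980. The PAR libraries stood at 372, 354 and 373 CPM, those of FRC1 at 328, 290 and 313 and those of SRC3 at 395, 395 and 417, and no library of a group overlapped with another group. Met was 1.18-fold lower in FRC1 than in PAR (log2 change -0.24 ± 0.05, edgeR adjusted p = 0.0012) and 1.3-fold higher in SRC3 than in FRC1 (0.38 ± 0.05, edgeR adjusted p = 5.8e-06). Both held under every alternative. The 1.10-fold rise from PAR to SRC3 (0.14 ± 0.049, edgeR adjusted p = 0.037) was lost without PAR replicate 1, 2 or 3 or SRC3 replicate 3 (adjusted p 0.0612, 0.140, 0.0509 and 0.0904).

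Hgf, which encodes the ligand of Met, was at a low level in PAR and FRC1 and had no read in SRC3. The gene lies on chromosome 5, 16553495 to 16620152. PAR libraries held 19, 12 and 12 reads (0.852 to 1.33 CPM), FRC1 libraries 20, 17 and 12 (0.854 to 1.51 CPM) and SRC3 libraries 0 each. PAR and FRC1 overlapped and their difference did not pass (log2 change 0.19 ± 0.34, edgeR adjusted p = 0.73). Against a floor of 3 counts over the 3 SRC3 libraries, Hgf was at least 13.8-fold lower in SRC3 than in PAR and at least 15.6-fold lower than in FRC1. Without SRC3 replicate 1 the bounds were 9.04 and 10.3. In SRC3 the receptor transcript was at 402 ± 12.6 CPM, and that of the ligand was not detected at this depth.

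Spry1 rose in SRC3, unlike the other Sproutys. It lies on chromosome 3, 37639947 to 37644598, and the antisense transcript Gm42922, which overlaps 710 of its exonic bases, had 15 reads in all libraries against 523 for Spry1. The PAR libraries stood at 2.94, 3.67 and 3.91 CPM, those of FRC1 at 3.56, 2.24 and 2.92 and those of SRC3 at 6.08, 7.17 and 6.23. Every SRC3 library lay above all others, while PAR and FRC1 overlapped. In SRC3 it was 1.85-fold higher than in PAR (log2 change 0.89 ± 0.18, edgeR adjusted p = 0.00052) and 2.24-fold higher than in FRC1 (1.16 ± 0.18, edgeR adjusted p = 5.2e-05), both under every alternative. The difference of FRC1 from PAR did not pass (-0.27 ± 0.20, edgeR adjusted p = 0.34).

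Spry2 and Spry4, also inhibitors of receptor tyrosine kinase signalling, differed little. Spry2 lies on chromosome 14, 105891947 to 105896819. Its PAR libraries stood at 89.1, 89.8 and 99.97 CPM, those of FRC1 at 92.3, 107 and 96.4 and those of SRC3 at 87.9, 84.5 and 90.7. PAR overlapped with both reserve populations, and all SRC3 libraries lay below all FRC1 libraries. The 1.13-fold lower level in SRC3 than in FRC1 (log2 change -0.17 ± 0.063, edgeR adjusted p = 0.043) was lost in 12 of 18 alternatives, with adjusted p from 0.0168 to 0.288. Among them were 7 single libraries left out: any PAR replicate, FRC1 replicate 2 or 3, and SRC3 replicate 1 or 2. Spry4 (chromosome 18, 38586247 to 38601415) was at 26.9 to 31.2 CPM in PAR, 28.3 to 32.3 in FRC1 and 29.9 to 33.7 in SRC3, and all groups overlapped. None of its 3 differences passed (edgeR adjusted p = 0.44, 0.13 and 0.56). Because Spry2 was far more abundant, Spry1 supplied 2.79 ± 0.284% of the summed Sprouty CPM in PAR, 2.22 ± 0.641% in FRC1 and 5.15 ± 0.645% in SRC3.

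Dusp6, the ERK phosphatase gene (chromosome 10, 99263231 to 99267489), was lowest in FRC1. The PAR libraries stood at 57.1, 52.6 and 60.1 CPM, those of FRC1 at 52.8, 41.5 and 46.2 and those of SRC3 at 62.0, 62.7 and 64.6. FRC1 replicate 1 overlapped with PAR, and all SRC3 libraries lay above the rest. The 1.35-fold higher level in SRC3 than in FRC1 (log2 change 0.43 ± 0.076, edgeR adjusted p = 0.00016) held under every alternative. The 1.21-fold lower level in FRC1 than in PAR (-0.27 ± 0.076, edgeR adjusted p = 0.011) was lost without PAR replicate 3 (0.0612) or FRC1 replicate 2 (0.0666). SRC3 against PAR did not pass (0.16 ± 0.074, edgeR adjusted p = 0.11), though it did with only the 2 groups in the fit (0.0494).

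Etv5 (chromosome 16, 22381309 to 22439719) was lower in both reserve populations than in PAR. The PAR libraries stood at 66.1, 64.6 and 62.0 CPM, those of FRC1 at 55.7, 49.4 and 54.6 and those of SRC3 at 56.5, 56.6 and 56.7. No FRC1 or SRC3 library reached the PAR range, and all SRC3 libraries lay just above all FRC1 libraries. The fall was 1.21-fold in FRC1 (log2 change -0.27 ± 0.06, edgeR adjusted p = 0.0021), under every alternative. In SRC3 it was 1.14-fold (-0.18 ± 0.06, edgeR adjusted p = 0.021), a call lost without PAR replicate 1 (0.0974), PAR replicate 2 (0.0657) or SRC3 replicate 1 (0.0624). The difference of SRC3 from FRC1 did not pass (0.09 ± 0.061, edgeR adjusted p = 0.29).

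The 5 feedback and target genes therefore did not move as a block. Their summed level was 246 ± 9.63 CPM in PAR, 232 ± 0.31 in FRC1 and 246 ± 5.52 in SRC3. Between PAR and SRC3, Spry1 rose and Etv5 fell while Spry2, Spry4 and Dusp6 did not pass the test.

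**Figure D3:**
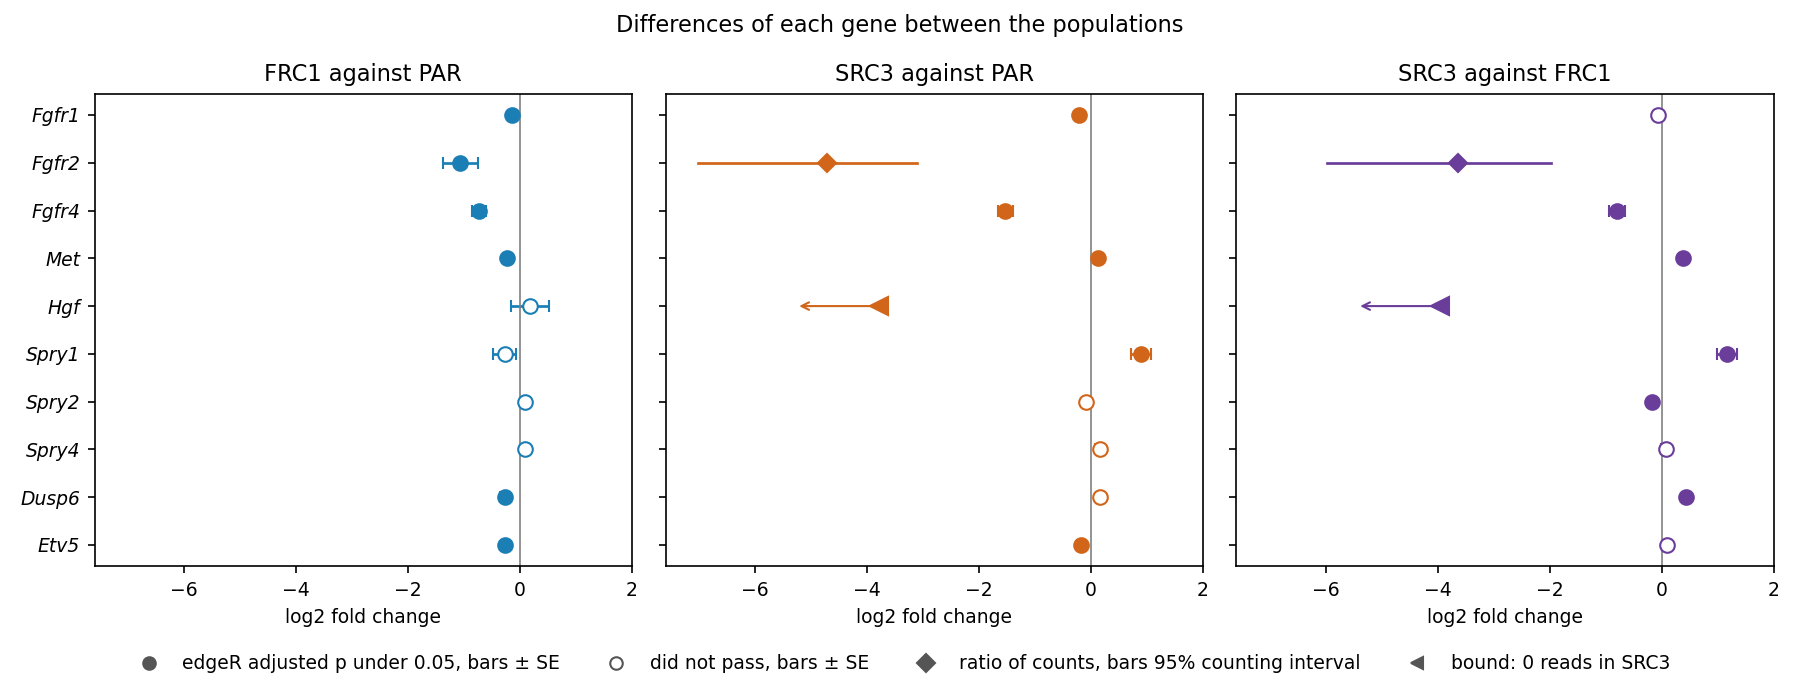
Log2 fold change (x axis) of each gene (y axis) in the 3 comparisons. Circles are edgeR estimates with ± SE, filled where the adjusted p was under 0.05; diamonds are ratios of counts for Fgfr2 with 95% counting intervals, and triangles are bounds for Hgf, which had 0 reads in SRC3. Fgfr2, Fgfr4 and Hgf lie far to the left in SRC3 and Spry1 to the right. No difference of Fgfr1, Met, Spry2, Spry4, Dusp6 or Etv5 is larger than 0.43 in size.

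Per kb of exon, Met and Spry2 had the highest levels among the 10 genes in every group and Fgfr2 and Hgf the lowest. In PAR the order in CPM per kb was Met (47.7 ± 1.35), Spry2 (44.5 ± 2.91), Fgfr1 (21.0 ± 0.527), Dusp6 (18.1 ± 1.21), Etv5 (15.7 ± 0.508), Fgfr4 (7.49 ± 0.623), Spry4 (6.08 ± 0.458), Spry1 (1.21 ± 0.174), Fgfr2 (0.190 ± 0.0366) and Hgf (0.144 ± 0.036). The ranges of mean ± SD overlapped for Met and Spry2 and for Fgfr2 and Hgf, and not for the other neighbours. In FRC1, Spry2 (47.3 ± 3.72) stood above Met (40.4 ± 2.5), Spry4 (6.47 ± 0.447) above Fgfr4 (4.52 ± 1.06), and Dusp6 (15 ± 1.83) and Etv5 (13 ± 0.819) overlapped. In SRC3, Met (52.4 ± 1.64) stood above Spry2 (42.0 ± 1.47), and Dusp6 (20.1 ± 0.422) above Fgfr1 (18.1 ± 0.114). There Spry1 (2.23 ± 0.203) came level with Fgfr4 (2.59 ± 0.193), their ranges of 1 SD overlapping. With the longest transcript as the length, Fgfr1 (35.5 ± 0.224) stood above Dusp6 (22.6 ± 0.472) in SRC3, so that order rests on the choice of length. So do several overlaps. With that length Spry1 (2.34 ± 0.212) lay below Fgfr4 (2.76 ± 0.205) in SRC3 without overlap. Dusp6 (16.8 ± 2.05) and Etv5 (13.4 ± 0.845) no longer overlapped in FRC1, nor did Met (53.8 ± 1.52) and Spry2 in PAR. Spry2 then overlapped with Met (45.5 ± 2.82) in FRC1 and with Fgfr1 (41.1 ± 1.03) in PAR.

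Within FRC1, replicate 1 was the highest and replicate 2 the lowest library for Fgfr4, Met, Spry1, Dusp6 and Etv5, and Spry2 had its highest value in replicate 2. The other members differed: Fgfr1 and Spry4 were lowest in replicate 1 and highest in replicate 3. Fgfr2 was lowest in replicate 2 and highest in replicate 3, and Hgf was highest in replicate 1 and lowest in replicate 3. FRC1 also differed from PAR in genes of differentiated muscle fibres. The summed level of 8 such markers was 93.7, 118 and 99.2 CPM in FRC1 replicates 1, 2 and 3, against 7.04 to 8.88 in PAR and 12.7 to 30.7 in SRC3, and 7 of 7 tested markers were higher in FRC1 than in PAR. Myh8 and Tnnc2 entered the test only through FRC1, where they were high, so their calls lend this count no support. In SRC3 against PAR, 5 of the 7 tested markers were higher and 2 did not pass, so the difference from PAR was not particular to FRC1. Ckm was at 0 in SRC3. The part of differentiated cells in the lower receptor levels of FRC1 was not tested. In SRC3 against PAR, 5 of 6 tested myoblast markers were lower, among them Myod1 (776 ± 15.1 against 539 ± 18.8 CPM) and Pax7 (127 ± 8.23 against 72.6 ± 3.15 CPM). Their part in the falls of Fgfr2, Fgfr4 and Hgf was not tested.

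Markers of fibroblasts and fibro-adipogenic cells summed to 557 to 587 CPM in PAR, 285 to 399 in FRC1 and 275 to 301 in SRC3. Nearly all of this sum was Col3a1, at 560.5 ± 15.9, 332 ± 57.3 and 279 ± 14.8 CPM, and 5 of the 8 markers were under 1 CPM in every group. Only 3 of the 8 were tested, of which 3 were lower in FRC1 and 2 in SRC3 than in PAR. Lum was at 0 in every group, Dpt in PAR and SRC3, Dcn in FRC1 and Thy1 in SRC3. Smooth muscle and pericyte markers summed to 74.98 to 84.7 CPM in PAR, 192 to 248 in FRC1 and 58.8 to 72.1 in SRC3, with Myh11 at 0 in PAR and FRC1, and 2 of 3 tested were higher in FRC1 than in PAR. In SRC3 against PAR 1 was higher and 2 lower: Cspg4 rose from 0.695 ± 0.325 to 52.3 ± 9.0 CPM, while Acta2 fell from 67.1 ± 5.64 to 8.58 ± 5.29 and Notch3 from 11.5 ± 1.23 to 4.40 ± 0.739. Glial markers summed to 1.61 to 2.41 CPM in PAR, 2.03 to 2.42 in FRC1 and 14.95 to 31.1 in SRC3, with Sox10 and S100b at 0 in every group. Endothelial markers summed to at most 0.559 CPM and leukocyte markers to at most 4.40 (Adgre1, Tyrobp and Cd52 at 0 throughout). Epithelial markers summed to 0.923 to 1.33 CPM in PAR, 1.35 to 2.04 in FRC1 and 3.30 to 4.08 in SRC3. Cdh1 was at 0 in every group, and 4 of the 5 epithelial markers were under 1 CPM in each. The 1 tested, Krt18, was at 1.01 ± 0.221, 1.58 ± 0.411 and 3.63 ± 0.545 CPM, called higher in SRC3 than in both others. The part of any of these cells in the results was not tested.

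Among the other receptors and co-receptors of the FGF and HGF families, 10 of 13 listed genes were tested. From PAR to FRC1, 2 rose and 2 fell. From PAR to SRC3 these numbers were 3 and 4 (3 and 2 without PAR replicate 2 or 3 or SRC3 replicate 1), and from FRC1 to SRC3 they were 1 and 3 (2 and 2 without FRC1 replicate 3). The shares called were 40.0, 70.0 and 40.0%, beside 28.3, 37.9 and 33.5% of all tested genes. Their median log2 fold changes were -0.03, -0.05 and -0.08. Plxnb1, the receptor of SEMA4D, which can associate with MET, was at 20.3 ± 0.591 CPM in PAR and higher in both FRC1 (33.5 ± 4.72, edgeR adjusted p = 9.8e-06) and SRC3 (36.8 ± 2.07, edgeR adjusted p = 3.3e-07). Nrp2, a co-receptor of semaphorins and VEGF, was 1.35-fold lower in FRC1 (20.1 ± 1.15 CPM) than in PAR (27.2 ± 0.94) and 3.02-fold higher in SRC3 (60.7 ± 3.11) than in FRC1. Its relative Nrp1 was 1.33-fold lower in SRC3 than in FRC1 (37.3 ± 2.79 against 49.4 ± 1.36 CPM). Cdh2, which encodes the adhesion molecule N-cadherin, was at 270 ± 8.44, 219 ± 7.43 and 193 ± 13.7 CPM in PAR, FRC1 and SRC3, with both falls from PAR called. Fgfrl1, a receptor that lacks the kinase domain, was 1.29-fold lower in SRC3 than in FRC1 (43.8 ± 1.39 against 56.4 ± 4.19 CPM).

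Of 24 listed FGF ligands and their binding proteins, 7 were tested. Between PAR and FRC1, 2 rose and none fell (1 rose without PAR replicate 1 or FRC1 replicate 2). Between PAR and SRC3, 4 rose and 1 fell, and between FRC1 and SRC3, 2 rose and 1 fell (2 and 2 without FRC1 replicate 1). Called were 28.6, 71.4 and 42.9% of these 7 genes and 28.3, 37.9 and 33.5% of all genes. The medians were 0.31, 0.49 and 0.18. Fgf2, a ligand commonly used to grow myoblasts, was at 1.01 ± 0.291 CPM in PAR and higher in FRC1 (5.40 ± 1.53, 5.32-fold, edgeR adjusted p = 1.3e-06) and SRC3 (4.27 ± 0.199, 4.19-fold, edgeR adjusted p = 4.2e-06). It shares 640 exonic bases with the antisense gene Nudt6, which had 734 reads in all libraries against 438 for Fgf2, and its values are uncertain since the strand setting of the counting is not given. Fgf13, an intracellular FGF that is not secreted, had 180 reads in PAR, 204 in FRC1 and 1 in SRC3. Its ratio was 173 (95% counting interval 30.6 to 6860) against PAR and 195 (34.7 to 7750) against FRC1, and without SRC3 replicate 2, which held the read, it was at least 38.8-fold and 43.9-fold lower. Fgf5, a secreted FGF, was at 0.120 ± 0.0372, 0.333 ± 0.174 and 1.18 ± 0.361 CPM in PAR, FRC1 and SRC3, higher in SRC3 than in both others (edgeR adjusted p = 9e-05 and 0.0032). Fgf5 entered the test only through SRC3, where it was high, and Fgf13 only through PAR and FRC1. Their calls in the comparisons of SRC3 therefore lend the counts of this list no support. The binding protein gene Fgfbp1 was at 0.365 ± 0.09, 0.979 ± 0.265 and 1.33 ± 0.101 CPM in PAR, FRC1 and SRC3. It entered the test only through FRC1 and SRC3, where it was high. Its rise in FRC1 (edgeR adjusted p = 0.012) was lost without PAR replicate 1 or FRC1 replicate 2. Any call of Fgfbp1 against PAR lends these counts no support. Fgf11, another intracellular FGF, was 1.21-fold higher in SRC3 than in FRC1 (46.6 ± 3.67 against 38.7 ± 1.46 CPM).

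HGF is secreted as an inactive chain that serine proteases cleave, and 6 of 15 listed genes for its activation or inhibition were tested. FRC1 had 2 of them higher than PAR and none lower, SRC3 had 4 higher and 1 lower than PAR, and relative to FRC1 it had 3 higher and 1 lower. That is 33.3, 83.3 and 66.7% of 6 genes, against 28.3, 37.9 and 33.5% over all genes. The medians of these differences were 0.15, 1.21 and 0.60. Spint1, an inhibitor of the HGF-activating proteases, had 1 read in PAR, 7 in FRC1 and 55 in SRC3. Its ratio of SRC3 to PAR was 57.3 (95% counting interval 9.86 to 2300), and without PAR replicate 1, which held the read, it was at least 12.5-fold higher. Spint2, its relative, was at 0.271 ± 0.195, 0.119 ± 0.0787 and 1.16 ± 0.0688 CPM, 4.24-fold higher in SRC3 than in PAR and 9.00-fold higher than in FRC1 (14.2-fold without FRC1 replicate 2). Spint1 and Spint2 entered the test only through SRC3, where they were high, so their calls lend the counts of this list no support. Plaur, the urokinase receptor gene, was higher in FRC1 than in PAR (209 ± 9.09 against 167 ± 5.09 CPM, log2 change 0.32 ± 0.052).

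Heparan sulfate chains are co-receptors for FGF and HGF, and 21 of 24 listed genes for their core proteins and modifying enzymes were tested. More of them fell than rose: 9 against 4 from PAR to FRC1, 10 against 3 from PAR to SRC3, and 9 against 4 from FRC1 to SRC3. Over all tested genes 14.7, 20.2 and 18% fell and 13.6, 17.8 and 15.5% rose. The rises from PAR to FRC1 were 2 without PAR replicate 2 or 3 or FRC1 replicate 3, and those from FRC1 to SRC3 were 2, with 7 falls, without SRC3 replicate 3. Median log2 changes were -0.09, -0.11 and -0.07. Hs6st2, a heparan sulfate 6-O-sulfotransferase, was at 93.6 ± 4.41 CPM in PAR, 75.2 ± 1.75 in FRC1 and 7.47 ± 1.2 in SRC3, 12.5-fold lower in SRC3 than in PAR (edgeR adjusted p = 1.6e-17) and 10.1-fold lower than in FRC1 (8.1e-17). The glypican Gpc4 was at 10.2 ± 0.725, 3.04 ± 0.318 and 0.177 ± 0.119 CPM, 3.35-fold lower in FRC1 and 55.0-fold lower in SRC3 than in PAR, and 16.4-fold lower in SRC3 than in FRC1. Without SRC3 replicate 2 the last 2 folds were 83.8 and 25.0. Gpc2 was at 1.15 ± 0.399, 1.48 ± 0.472 and 0.127 ± 0.158 CPM, 8.64-fold lower in SRC3 than in PAR and 11.1-fold lower than in FRC1, or 24.9- and 32.1-fold without SRC3 replicate 3. Gpc2 and Gpc4 entered the test only through PAR and FRC1, so their calls against SRC3 lend the counts of this list no support. Gpc6 was 1.40-fold lower in FRC1 than in PAR (23.9 ± 0.937 against 33.5 ± 1.58 CPM), and the chain-extending enzyme gene Ext1 1.32-fold higher (99.3 ± 13.5 against 75.4 ± 5.83 CPM).

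**Figure D4:**
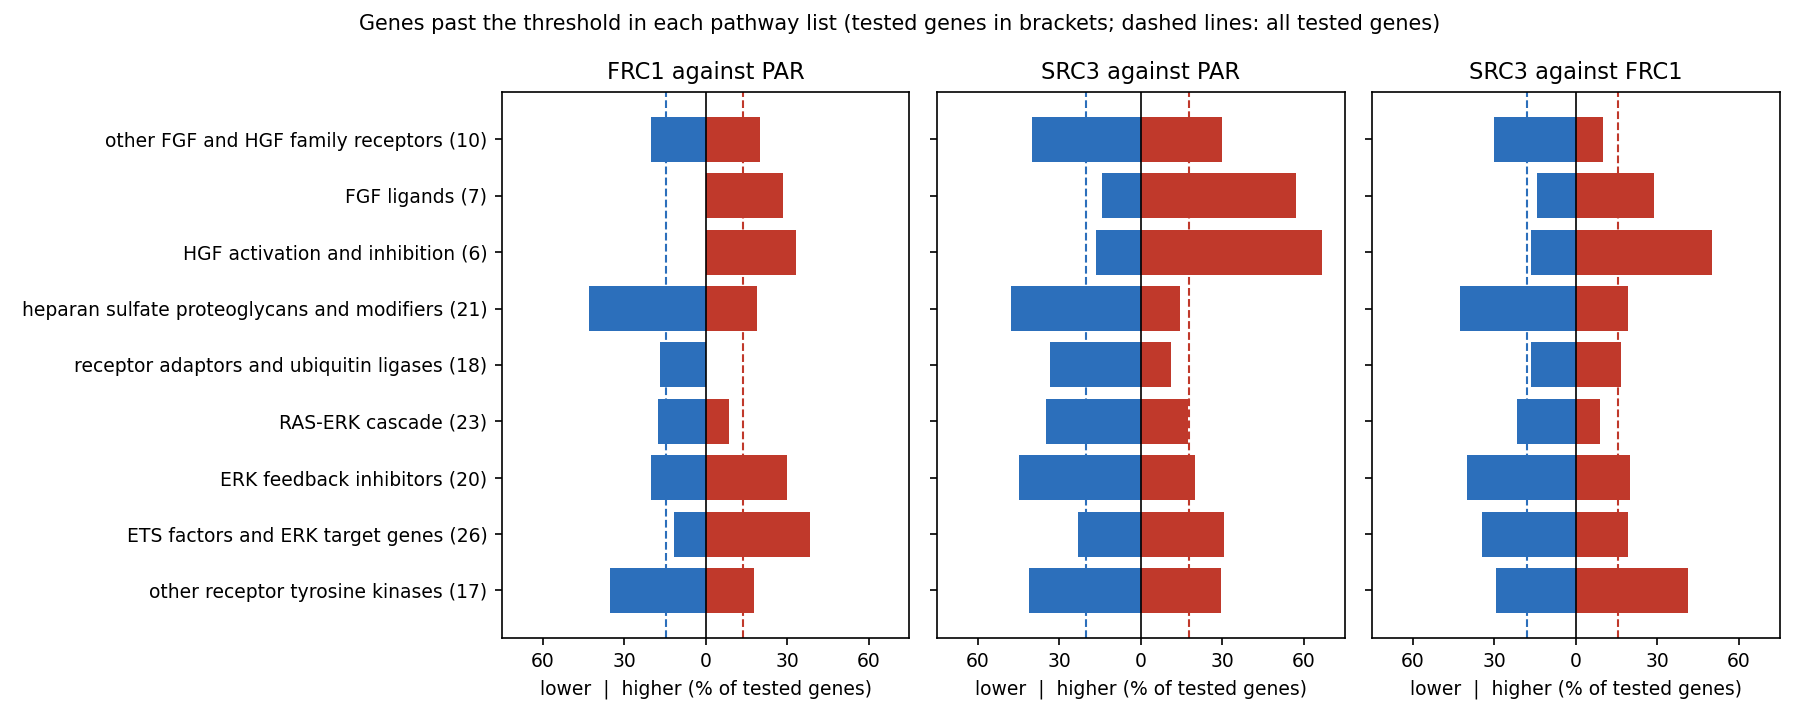
Percentage of tested genes called higher (red, to the right) and lower (blue, to the left) in each of 9 pathway lists in the 3 comparisons, with the number of tested genes in brackets; dashed lines are the shares over all 12540 tested genes. Heparan sulfate genes were called lower more often than higher in all 3 comparisons (9 and 4 of 21 in FRC1 against PAR), and the list of HGF activation and inhibition had 4 of 6 higher in SRC3 against PAR. Among these 4, Spint1 and Spint2 entered the test only through SRC3, where they were high.

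Among 18 tested adaptors and ubiquitin ligases of these receptors, none rose and 3 fell from PAR to FRC1 (1 and 4 without SRC3 replicate 3). From PAR to SRC3, 2 rose and 6 fell (1 and 4 without PAR replicate 3), and 3 rose and 3 fell from FRC1 to SRC3 (1 and 4 without SRC3 replicate 3). The shares called, 16.7, 44.4 and 33.3%, stand beside 28.3, 37.9 and 33.5% of all tested genes. Medians were -0.10, -0.09 and -0.03. Frs2, the docking protein gene of FGF receptors, was at 56.8 ± 5.02, 47.4 ± 1.33 and 56.4 ± 3.95 CPM in PAR, FRC1 and SRC3. Its fall in FRC1 (edgeR adjusted p = 0.0091) was lost without PAR replicate 3 (0.063), and its rise from FRC1 to SRC3 (edgeR adjusted p = 0.0099) without SRC3 replicate 3 (0.054). Plcg1, the phospholipase C gamma gene, was 1.16-fold lower in FRC1 and 1.3-fold lower in SRC3 than in PAR (146 ± 5.51 and 131 ± 1.45 against 169 ± 3.28 CPM). It shares 379 exonic bases with the antisense gene Zhx3, which had 3525 reads in all libraries against 18257, so these small differences are uncertain. Shc2, an adaptor gene, was 3.44-fold higher in SRC3 than in PAR (7.40 ± 0.887 against 2.14 ± 0.33 CPM). Stat3, a transcription factor gene, was 1.42-fold lower in SRC3 than in PAR (29.2 ± 3.43 against 41.4 ± 2.1 CPM), and Pik3r1, for the regulatory subunit of PI3K, 1.28-fold lower in FRC1 than in PAR (29.6 ± 2.14 against 38.0 ± 0.607 CPM).

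All 23 listed genes of the cascade from RAS to ERK were tested. Between PAR and FRC1, 2 rose and 4 fell, 6 in all (3 without PAR replicate 1 or FRC1 replicate 2, 2 without FRC1 replicate 3 and 1 without PAR replicate 3). SRC3 differed from PAR in 12 of them, 4 higher and 8 lower (2 and 7 without PAR replicate 3 or SRC3 replicate 1). It differed from FRC1 in 7, 2 higher and 5 lower (1 and 5 without FRC1 replicate 2 or 3). The shares called were 26.1, 52.2 and 30.4%, against 28.3, 37.9 and 33.5% over all tested genes. Medians of the 3 comparisons were -0.07, -0.04 and -0.02. Ksr1, a scaffold of RAF and MEK, was at 17.1 ± 0.735, 16.1 ± 2.27 and 9.50 ± 0.991 CPM and 1.80-fold lower in SRC3 than in PAR (edgeR adjusted p = 8.7e-06). Rasa1, a RAS inactivator, was 1.31-fold lower in SRC3 than in FRC1 (358 ± 21.9 against 469 ± 22.1 CPM). Hras was 1.24-fold higher in FRC1 than in PAR (86.6 ± 2.59 against 70.1 ± 5.47 CPM). The RAS relative Mras was 1.46-fold higher, and Rras 1.57-fold lower, in SRC3 than in PAR.

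Of the other listed feedback inhibitors of ERK and related kinases, 20 of 21 were tested. From PAR to FRC1, 6 rose and 4 fell. From PAR to SRC3, 4 rose and 9 fell, and from FRC1 to SRC3, 4 rose and 8 fell. Without PAR replicate 1 or FRC1 replicate 2, 5 rose and 3 fell from PAR to FRC1. Without PAR replicate 3, 4 rose and 6 fell from PAR to SRC3. Called were 50, 65 and 60% of the list and 28.3, 37.9 and 33.5% of all tested genes. The median log2 changes were -0.01, -0.15 and -0.14. Among the rises in SRC3 were Flrt2 and Flrt3, which encode leucine-rich membrane proteins, of which FLRT3 binds FGF receptors and is known to favour rather than inhibit their signalling. Flrt2 was at 141 ± 12.4, 132 ± 11.6 and 364 ± 20.7 CPM, 2.57-fold higher in SRC3 than in PAR (edgeR adjusted p = 8.6e-11). Flrt3 was at 1.06 ± 0.0113, 2.097 ± 0.836 and 5.18 ± 0.4 CPM, 4.85-fold higher in SRC3 than in PAR (edgeR adjusted p = 5.7e-07). Dusp1, Dusp8 and Dusp10 encode phosphatases that act on p38 and JNK as well as, or rather than, ERK. Dusp1 was at 15.7 ± 0.948, 21.6 ± 3.24 and 7.75 ± 1.15 CPM, 2.02-fold lower in SRC3 than in PAR and 2.78-fold lower than in FRC1. Dusp8 was 2.08-fold higher in FRC1 than in PAR (11.1 ± 3.95 against 5.34 ± 0.694 CPM), and Dusp10 was 1.48-fold lower (28.0 ± 2.09 against 41.5 ± 1.39 CPM).

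All 26 further ETS factors and genes known to respond to ERK were tested. FRC1 had 10 of them above PAR and 3 below, SRC3 had 8 above PAR and 6 below, and 5 rose while 9 fell from FRC1 to SRC3. Without PAR replicate 1 or 2 or FRC1 replicate 3, FRC1 had 7 above PAR and 2 below. From FRC1 to SRC3, 5 rose and 6 fell without FRC1 replicate 3, and 7 rose and 11 fell without SRC3 replicate 2. The shares called were 50.0, 53.8 and 53.8%, beside 28.3, 37.9 and 33.5% of all genes. Their medians were 0.12, 0.04 and -0.08. Etv1, of the same PEA3 subfamily as Etv5, was at 45.6 ± 2.95 CPM in PAR and 1.96-fold lower in FRC1 (23.3 ± 5.99, edgeR adjusted p = 0.00043). Ccnd1, the cyclin D1 gene, was at 1983 ± 18.5, 1613 ± 78.8 and 1195 ± 55.1 CPM, 1.66-fold lower in SRC3 than in PAR (edgeR adjusted p = 1.7e-10). The immediate early genes differed among themselves. Egr3 was 2.25-fold higher in SRC3 than in PAR (4.99 ± 0.588 against 2.22 ± 0.583 CPM), Egr1 was 1.68-fold lower in SRC3 than in FRC1 (17.2 ± 2.3 against 28.8 ± 1.64 CPM), and Fos was at 0.629 ± 0.0602, 1.29 ± 0.203 and 0.731 ± 0.174 CPM. The 2.05-fold higher level of Fos in FRC1 than in PAR (edgeR adjusted p = 0.024) was lost without any of PAR replicates 1, 2 and 3 or FRC1 replicates 2 and 3 (adjusted p 0.053 to 0.091). Fos entered the test only through FRC1, where it was high, so its calls lend the counts of this list no support. The ephrin receptor gene Epha4 was at 7.77 ± 1.77, 11.7 ± 0.39 and 26.0 ± 3.95 CPM and higher at each step (edgeR adjusted p = 0.0068 for FRC1 against PAR and 1.1e-06 for SRC3 against FRC1).

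For the 3 genes with the widest range of group means, the nearest patterns among 9597 tested genes of at least 5 CPM were taken by the root mean square difference of centred log2 CPM over the 9 libraries. Nearest to Fgfr4 were Antxr1 (0.122), at 129 ± 2.86, 83.9 ± 13.7 and 44.6 ± 1.47 CPM in PAR, FRC1 and SRC3, Robo1 (0.132) and Lama2 (0.164). For Fgfr2 these were Gbp9 (0.333), Mest (0.340), at 205 ± 24.7, 151 ± 44.8 and 29.9 ± 5.78 CPM, and H19 (0.403). For Hgf they were Igfbp2 (0.245), at 332 ± 9.72, 320 ± 15.4 and 40.4 ± 4.39 CPM, Ttyh1 (0.266) and Colec12 (0.344). The distances for Fgfr2 and Hgf are larger, and both genes had few reads. These are descriptions over 9 libraries in 3 groups.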

How the data were processed

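The authors deposited 1 table per library with raw, whole read counts of each gene. Per the submitters' processing notes, HISAT2 2.1.0, HTSeq 0.9.1, DESeq2 and the build GRCm38 were used. The strand setting of the counting is not given in the sources used here, so that reads of antisense or overlapping genes cannot be told apart. Summary lines that name no gene (5.923 to 7.917% of reads in no feature, 1.175 to 1.214% ambiguous) stayed out of library sizes.

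Groups were taken from the titles. In R 4.3.3 with edgeR 4.0.16, genes were filtered with filterByExpr at its defaults, scaled by TMM (factors 0.994 to 1.012) and fitted over all 9 libraries with the group as the term, 6 residual degrees of freedom and robust dispersion. The common biological coefficient of variation was 0.0535. The pipeline was tested on simulated data. Every gene there had a baseline of at least 1 CPM, so genes with almost no reads were not covered. Replicates differed by more than sampling noise, with a chi-square per degree of freedom of 1.814 to 7.473 between their counts, which does not tell separate cultures from repeat libraries. Of the 47729 genes, 47224 were matched by identifier to GENCODE M21. With 0 counts in a group a fold is a bound against 3 counts over the group, and with 1 to 3 counts a ratio with an exact conditional binomial 95% interval. Neither covers more than counting error, as no molecular identifiers were used to count molecules. The bound takes the reads of the higher group as exact, so it leaves out their counting error. Log2 CPM used a prior count of 2.

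The members and lists were chosen with earlier results of these data known. Named genes were all 10 members and, from each list, up to 3 genes per comparison with the largest called change and at least 1 CPM in the higher group. A gene taken by this rule is not reported here. Myod1, Pax7, Fgfr3, Fgfbp1, Krt18, Col3a1, Cspg4, Acta2 and Notch3 were added after their values were seen. Alternatives were RLE or no scaling, no filter or 5 CPM in 3 libraries, DESeq2 1.42.0, voom of limma 3.58.1, dispersion without robust estimation, fits of 2 groups, a replicate block, each library left out, and another gene length.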

Additional observations from a re-analysis of the deposited data

How the results depend on the processing

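Of 533 recomputed values of single genes, 501 kept their direction and side of the threshold, 30 lost the call, 1 gained it and 1 reversed: Hgf in FRC1 against PAR, which was not called, had log2 fold changes from -0.01705 (without FRC1 replicate 1) to 0.4102 (without PAR replicate 1) with a library left out. With each library left out in turn, 2327 to 3987 genes and 3 to 6 of the 10 members were called in FRC1 against PAR, 3845 to 4924 and 5 to 7 in SRC3 against PAR, and 3372 to 4281 and 6 to 7 in SRC3 against FRC1. The lowest gene count, 2327 against 3550, was without FRC1 replicate 3. The cause was not tested. With the stricter filter, 4 members were called in SRC3 against FRC1, since Fgfr2 and Hgf were then not tested and Spry2 did not pass (adjusted p = 0.0644). The share of Fgfr1 among the FGF receptors was 82.5, 87.5 and 92.0% in PAR, FRC1 and SRC3 with the longest transcript as the length, and 72.0 to 73.2, 78.0 to 82.0 and 86.2 to 87.0% with a library left out. The labels name no pairing of libraries by replicate number. Deviations of same-numbered libraries correlated at -0.07 to 0.118, over 0.1 in 1 of 9 pairs, which does not exclude a pairing. With the replicate block, 3560, 4798 and 4221 genes and 6, 7 and 7 members were called, against 3550, 4758 and 4199 genes and 6, 7 and 7 members without it. Depth limits Fgfr2 and Hgf, where a single SRC3 read moves a ratio or ends a bound.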

Other observations

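Of 24 listed receptor tyrosine kinases outside the FGF and HGF families, 17 were tested. Between PAR and FRC1, 3 rose and 6 fell, 9 in all (1 and 4 without PAR replicate 1, 0 and 5 without PAR replicate 2, 2 and 3 without FRC1 replicate 2, 0 and 4 without FRC1 replicate 3). SRC3 had 5 above and 7 below PAR, and 7 above and 5 below FRC1. The shares called were 52.9, 70.6 and 70.6%, beside 28.3, 37.9 and 33.5% of all tested genes. The median log2 changes of the 3 comparisons were -0.05, -0.01 and 0.00. Flt1, a VEGF receptor gene, was at 13.4 ± 0.737, 9.26 ± 1.19 and 78.6 ± 9.49 CPM in PAR, FRC1 and SRC3, 5.86-fold higher in SRC3 than in PAR (edgeR adjusted p = 6.5e-14) and 1.45-fold lower in FRC1 than in PAR (edgeR adjusted p = 0.0029). Egfr, the EGF receptor gene, was at 75.2 ± 3.0, 59.95 ± 6.79 and 28.3 ± 3.97 CPM, 2.66-fold lower in SRC3 than in PAR (edgeR adjusted p = 4.5e-09). Erbb3, a neuregulin receptor gene, was at 2.42 ± 0.659, 4.19 ± 0.47 and 8.54 ± 1.55 CPM, 3.50-fold higher in SRC3 than in PAR (edgeR adjusted p = 3.7e-07). Mertk, a receptor of the TAM family, was 2.26-fold higher in SRC3 than in FRC1 (16.6 ± 1.29 against 7.35 ± 0.538 CPM). Pdgfra, also a marker of fibro-adipogenic cells, was 1.51-fold lower in FRC1 than in PAR (3.02 ± 0.494 against 4.55 ± 0.667 CPM, edgeR adjusted p = 0.024), a call lost without PAR replicate 1 (0.13) or FRC1 replicate 2 (0.099) or 3 (0.076).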
